A study of Mus musculus with 6 samples.

Results

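Described here are 10 genes of the Notch pathway, the receptors Notch1, Notch2 and Notch3, the ligands Jag1, Jag2 and Dll1 and the target genes Hes1, Hey1, Hey2 and Heyl. They were chosen by name, as Notch receptors, ligands and HES/HEY targets, from 55335 genes in the deposited table, and each matched 1 row. The choice was made with earlier results of these data known. RNA-seq of polyadenylated RNA compared mouse embryonic fibroblasts (MEFs, genotype WT) of a control group (Ctrl) with MEFs collected after 15 h, once they had crossed a membrane with 3 μm pores (Confine), to find transcripts that differ after confined migration. The study calls the comparison cells parental. The labels attach the same transwell text to all samples, so that confinement, time on the insert and selection of the cells that crossed cannot be told apart here. Each group has 3 samples, but Confine replicates 1 and 2 carry identical counts throughout the table. They were counted as 1 library, called the repeated Confine library, which leaves 3 Ctrl against 2 Confine libraries. Nothing says whether libraries came from separate cultures, so p-values measure only the spread between these samples, which may be technical.

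The Notch pathway carries a signal between touching cells. A ligand on one cell (Jag1, Jag2 or Dll1 here) binds a receptor (Notch1, Notch2 or Notch3) on its neighbour, the receptor is cut by an ADAM protease and then by gamma-secretase, and the freed intracellular part enters the nucleus and joins the DNA-binding protein RBPJ and a Mastermind coactivator. The best known genes switched on by this complex encode the HES and HEY repressors (Hes1, Hey1, Hey2 and Heyl). Fibroblasts can both send and receive this signal, and NOTCH3 is best known from mural cells, the smooth muscle cells and pericytes of vessel walls.

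Library totals ran from 22287210 to 32537550 counts. After a low-count filter 15881 genes were tested in edgeR (quasi-likelihood, adjusted by Benjamini-Hochberg over all of them), and a gene passed at an adjusted p under 0.05. CPM stands for a gene's counts relative to its library's total after TMM scaling, and genes are compared with each other only as CPM per kilobase of annotated exon (RPKM). Of all genes tested, 12.8% were higher and 10.2% lower in Confine (2035 and 1619 genes), or 23% in all. Without TMM, on library totals, the median over all genes lay at -0.21 (log2), with 1444 genes higher and 2805 lower. The fibroblast genes Col1a1, Col1a2, Vim and Fn1 had at least 15394 counts in every library, whereas Lum and Thy1 had at most 2. Dcn had 2, 0 and 0 counts in Ctrl, 27 in the repeated Confine library and 3 in Confine replicate 3, and was not tested. The 10 fibroblast markers summed to 8728 to 9586 CPM in Ctrl and 15717 to 16495 CPM in Confine, and of 7 tested Col1a1, Col3a1, Pdgfra, Vim and Fn1 rose, none fell, and Col1a2 and Pdgfrb did not pass. The part of this shift in the results on Notch genes was not tested. The groups did not overlap in 49.5% of all tested genes.

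Of the 10 genes, 2 rose in Confine, the receptor gene Notch3 and the target gene Hey2, by 10.3-fold and 10.5-fold, and none fell. Another 6 were tested without passing, and Dll1 and Heyl had too few reads to be tested. The 2 that passed are 25% of the 8 tested, against 23% of all genes. Both also had a log2 fold change above 1.5, as did 4.89% of all genes tested. Hey2 entered the test only because its Confine counts are high, so these shares say nothing about the members as a group.

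The sequence upstream of both risen genes is shown to place the binding motifs of the pathway's own factors. It covers the 250 bases before the RefSeq start site (GRCm38.p6), 5′ to 3′ on the gene's strand, for Hey2 at chr10:30842784-30843033 and for Notch3 at chr17:32166891-32167140, both on the minus strand. The RefSeq start lies 18 bases from the GENCODE gene start for Hey2 and 38 bases from it for Notch3. Capitals mark matches on either strand to 3 motifs, the RBPJ core TGGGAA, the N-box CACNAG bound by HES factors and the E-box CACGNG bound by HES and HEY factors.
Hey2: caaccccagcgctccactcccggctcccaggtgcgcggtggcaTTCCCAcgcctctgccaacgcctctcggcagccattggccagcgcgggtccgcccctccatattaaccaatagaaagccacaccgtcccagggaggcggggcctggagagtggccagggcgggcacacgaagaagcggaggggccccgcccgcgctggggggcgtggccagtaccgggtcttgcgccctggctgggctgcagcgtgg
Notch3: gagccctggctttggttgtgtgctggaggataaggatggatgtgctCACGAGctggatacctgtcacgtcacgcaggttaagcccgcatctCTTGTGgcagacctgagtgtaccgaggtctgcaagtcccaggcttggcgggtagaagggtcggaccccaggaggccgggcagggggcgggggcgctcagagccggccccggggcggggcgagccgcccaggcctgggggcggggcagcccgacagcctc
The Hey2 window holds 1 RBPJ core, TTCCCA on the opposite strand, starting 207 bases before the start site. The Notch3 window holds no RBPJ core but 2 N-boxes, of which CACGAG, 204 bases before the start site, is also an E-box match. Hey2 was the 1 gene with an RBPJ core among the 7 members with a promoter entry (Notch1, Notch2, Notch3, Jag1, Jag2, Dll1 and Hey2). Hes1, Hey1 and Heyl had no entry, so Hey2 was the only HES/HEY gene searched. Of all 32851 promoter windows, 21.6% hold an RBPJ core. An N-box stands in 36.7% and an E-box in 23.5% of all windows, and a match describes these letters only.

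Notch3 rose from a low level and remained a minor receptor. Its counts were 15, 14 and 10 in Ctrl, against 99 in the repeated Confine library and 175 in Confine replicate 3. The groups did not overlap, and the Confine libraries also stood apart from each other. Mean levels were 0.491 ± 0.0571 CPM (SD, n = 3) for Ctrl and 5.15 ± 2.55 CPM (SD, n = 2) for Confine, a log2 fold change of 3.37 (standard error 0.39, 95% interval 2.55 to 4.19, edgeR adjusted p = 4.40e-06). The rise passed with each library left out, from 2.75 on the log2 scale without Confine replicate 3 to 3.81 without the repeated library. In these bulk samples more cells that express a gene and more of its RNA per cell cannot be told apart. Notch3 (ENSMUSG00000038146.8, chromosome 17, 32120820 to 32166852, minus strand, GRCm38) overlaps the antisense gene Gm17276, which had at most 7 counts in any library.

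Hey2 (ENSMUSG00000019789.9, chromosome 10, 30832359 to 30842801, minus strand), a bHLH repressor known from heart and artery development, was close to the detection limit in Ctrl. Its counts were 2, 3 and 4 in Ctrl against 40 and 29 in Confine, without overlap. This corresponds to 0.118 ± 0.0506 CPM (SD, n = 3) and 1.25 ± 0.141 CPM (SD, n = 2), where 3 counts amount to 0.101 to 0.128 CPM. The ratio of the summed, scaled counts was 11.0, with an exact 95% interval of 5.49 to 25.2 that covers counting error only. The fitted log2 fold change was 3.39 (standard error 0.61, 95% interval 2.12 to 4.67, edgeR adjusted p = 4.00e-04). No Ctrl library reached the filter's 0.366 CPM and both Confine libraries did, so Hey2 was tested because it is high in Confine. With no filter on low counts the log2 fold change was 3.38 (edgeR adjusted p = 2.90e-06). That fit took each gene's variance wholly from the other genes, so its p-value leaves out Hey2's own spread between libraries. Leaving out each library gave 3.11 to 3.71, with adjusted p from 2.72e-04 to 0.0169.

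**Figure D1:**
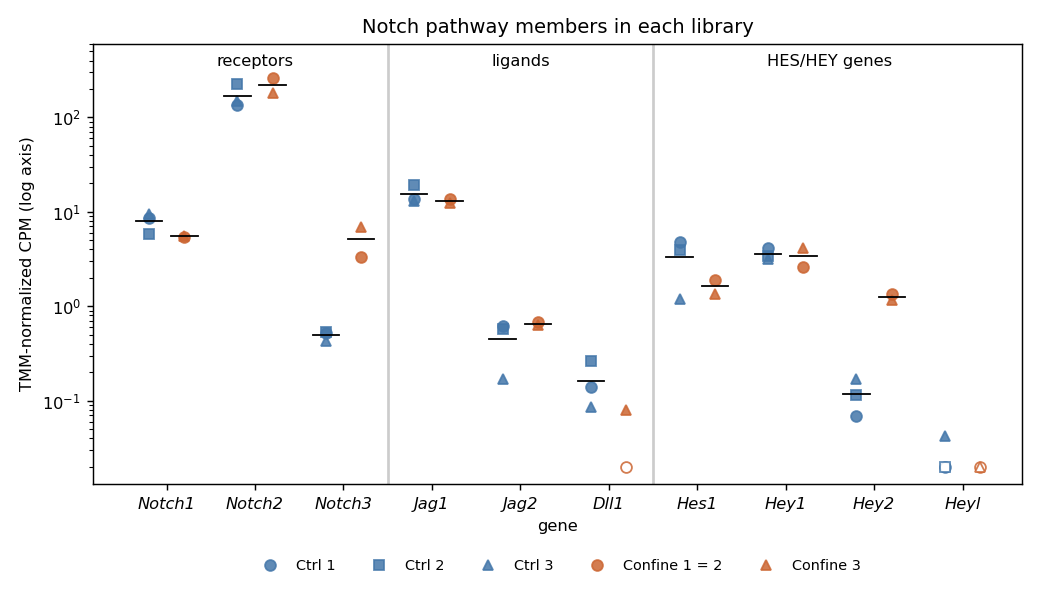
TMM-normalized CPM (log axis) of the 10 genes in each library, with circles, squares and triangles for single libraries, short lines for group means (none where a library is at 0) and open symbols at the bottom for libraries with 0 counts. "Confine 1 = 2" is the repeated Confine library. Notch3 and Hey2 are the genes whose Confine points stand far above their Ctrl points, while the points of Notch2, Jag1, Hes1 and Hey1 overlap between the groups.

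Notch2 (ENSMUSG00000027878.11, chromosome 3, 98013527 to 98150361, plus strand) was the most abundant receptor of the 4 in every library, at 136, 227 and 148 CPM in Ctrl and 263 and 183 CPM in Confine. Ctrl replicate 2 lay above Confine replicate 3, so the groups overlapped. The log2 fold change was 0.39 (95% interval -0.08 to 0.86, edgeR adjusted p = 0.239). This call rested on Ctrl replicate 2, without which the log2 fold change was 0.65 (edgeR adjusted p = 0.0195). Without the repeated Confine library it was 0.11.

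Notch1 (ENSMUSG00000026923.15, chromosome 2, 26457903 to 26516663, minus strand), the receptor best known from T cell development, had 8.57, 5.86 and 9.44 CPM in Ctrl and 5.41 and 5.60 CPM in Confine. Both Confine libraries were below all Ctrl libraries, a separation that 23.6% of all tested genes show in this direction, but Ctrl replicate 2 came close to them. The log2 fold change was -0.53 (95% interval -1.07 to 0.01, edgeR adjusted p = 0.154). Without Ctrl replicate 2 it was -0.71 and passed (edgeR adjusted p = 0.0266). Notch1 overlaps 0610009E02Rik on the opposite strand, which had 107, 241 and 137 counts in Ctrl and 264 and 188 in Confine, against 248, 155, 222, 160 and 141 for Notch1. Whether the read counting used the strand is not given in the sources used here, and the origin of reads in the shared stretch is uncertain.

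Set side by side per kilobase, the receptors kept their leading gene, while Notch3 passed Notch1 in mean level. Notch2 took 94.6%, 97.6% and 94.6% of the summed receptor RPKM (Notch1 to Notch4) in Ctrl and 96.4% and 92.1% in Confine. Notch3 took 0.480%, 0.303% and 0.362% in Ctrl, then 1.63% and 4.65% in Confine. The Confine libraries thus differed more from each other than the Ctrl libraries did. Its share was higher in both Confine libraries than in any Ctrl library (two-sided exact permutation test over libraries, p = 0.1, the smallest that 3 against 2 allow, adjusted p = 0.3 over 6 such measures). In Ctrl the mean level of Notch1 was 0.559 RPKM and that of Notch3 0.0607 RPKM. In Confine Notch3 (0.636 RPKM) stood above Notch1 (0.387 RPKM), with ranges that did not overlap. The gap was wide only in Confine replicate 3 (0.859 against 0.393 RPKM). In the repeated Confine library the levels were close, at 0.413 RPKM for Notch3 and 0.380 RPKM for Notch1. Notch3 had fewer counts there (99 against 160), so its lead rests on the exon lengths. The origin of some Notch1 reads is also uncertain, as stated above. The summed receptor level was 16.5 ± 4.48 RPKM (SD, n = 3) in Ctrl and 21.9 ± 4.84 RPKM (SD, n = 2) in Confine (exact permutation p = 0.3, adjusted p = 0.6).

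**Figure D2:**
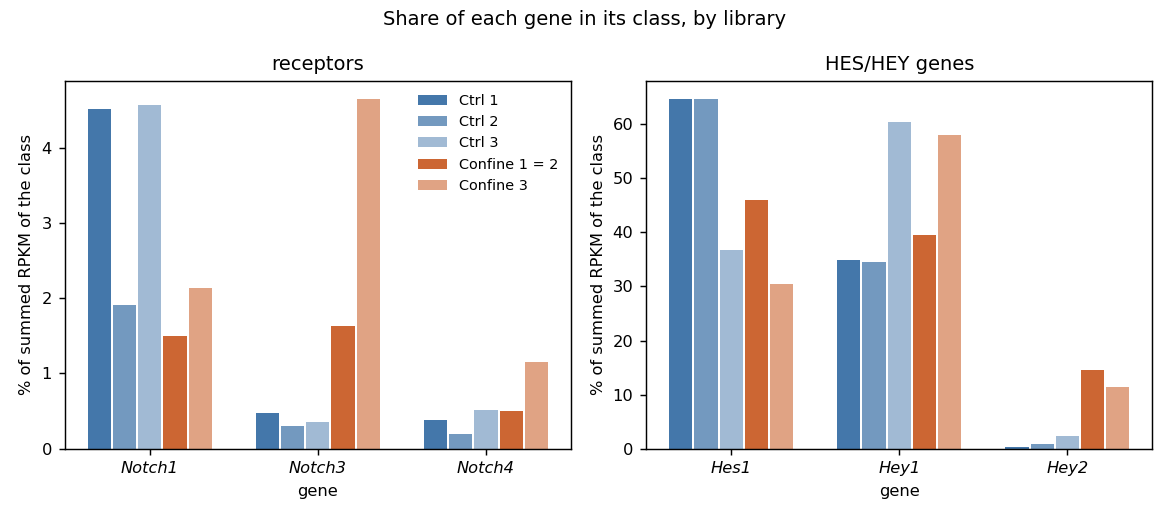
Share of single genes in the summed RPKM of their class (left, receptors; right, HES/HEY genes) in each library, with Ctrl libraries in blue and Confine libraries in orange; Notch2 holds the remaining 92.1% to 97.6% of the receptor level and is not drawn. The Notch3 bars reach 1.63% and 4.65% in Confine against at most 0.480% in Ctrl, and the Hey2 bars 14.6% and 11.5% against at most 2.32%.

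None of the ligand genes passed the test. Jag1 (ENSMUSG00000027276.7, chromosome 2, 137081456 to 137116644, minus strand), the main ligand here, had 13.6, 19.5 and 13.1 CPM in Ctrl and 13.5 and 12.3 CPM in Confine. The groups overlapped, and the log2 fold change was -0.26 (95% interval -0.72 to 0.21, edgeR adjusted p = 0.458). Jag1 took 93.6% to 97.6% of the summed ligand RPKM in all libraries, where the ligands summed were Jag1, Jag2, Dll1, Dll3 and Dll4. Jag2 (ENSMUSG00000002799.6, chromosome 12, 112907819 to 112929776, minus strand) had 18, 15 and 4 counts in Ctrl and 20 and 16 in Confine, and its log2 fold change of 0.51 had a wide interval (-0.74 to 1.76, edgeR adjusted p = 0.596). Its CPM values did not overlap between the groups, which 25.9% of all tested genes show with Confine above Ctrl.

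Dll1 (ENSMUSG00000014773.13, chromosome 17, 15367354 to 15376872, minus strand), the ligand known from somite and neural patterning, had 4, 7 and 2 counts in Ctrl and 0 and 2 in Confine, and was not tested because no library reached the filter. The ratio of its summed, scaled counts, Confine over Ctrl, was 0.222 with an exact 95% counting interval of 0.0243 to 0.979. With no filter edgeR gave an adjusted p of 0.491. Both Confine libraries lay below all Ctrl libraries in CPM, and the counting interval, which leaves out the spread between libraries, lay below 1. Dll1 also shares 447 bases of near-identical sequence with A930024N18Rik. In both groups Dll1 was among the lowest of the 10 genes, with 0.0385 ± 0.0219 RPKM (SD, n = 3) in Ctrl and 0.00941 ± 0.0133 RPKM (SD, n = 2) in Confine.

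Hes1 (ENSMUSG00000022528.8, chromosome 16, 30064384 to 30067796, plus strand), the classic Notch target and a repressor that also limits its own transcription, varied widely within Ctrl. It had 139, 104 and 28 counts there, or 4.80, 3.93 and 1.19 CPM, and 56 and 34 counts in Confine, or 1.89 and 1.35 CPM. Both Confine values lie between Ctrl replicate 3 and the other two Ctrl libraries. The log2 fold change was -1.03 (standard error 0.45, 95% interval -1.98 to -0.08), which did not pass (edgeR adjusted p = 0.112). The result turned on Ctrl replicate 3, without which the log2 fold change was -1.44 and passed (edgeR adjusted p = 0.00400). Leaving out each library gave -1.44 to -0.67.

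Hey1 (ENSMUSG00000040289.8, chromosome 3, 8663359 to 8667256, minus strand), the HEY gene with the highest level in both groups, did not show a direction. It had 4.15, 3.36 and 3.15 CPM in Ctrl and 2.60 and 4.13 CPM in Confine. The Confine libraries lay on either side of the Ctrl mean. Its log2 fold change was -0.08 (95% interval -0.72 to 0.55, edgeR adjusted p = 0.878), and it ranged from -0.45 to 0.22 with a library left out. Heyl (ENSMUSG00000032744.4, chromosome 4, 123233556 to 123249875, plus strand), a target gene tied to NOTCH3 in mural cells, had 1 count in Ctrl replicate 3. It had 0 in the other libraries, which allows up to 0.119 CPM in any library at 0. A difference in Heyl was not detectable at this depth.

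Per kilobase, Hes1 and Hey1 made up most of the HES/HEY level in both groups and Hey2 gained a share. Hey2 took 0.413%, 0.827% and 2.32% of the summed RPKM of Hes1, Hey1, Hey2 and Heyl in Ctrl and 14.6% and 11.5% in Confine. Every Confine library was above every Ctrl library (exact permutation p = 0.1, the smallest possible, adjusted p = 0.3). The summed level itself was 3.64, 2.98 and 1.59 RPKM in Ctrl and 2.02 and 2.18 RPKM in Confine. Both Confine sums lay within the Ctrl range (exact permutation p = 0.5, adjusted p = 0.6).

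**Figure D3:**
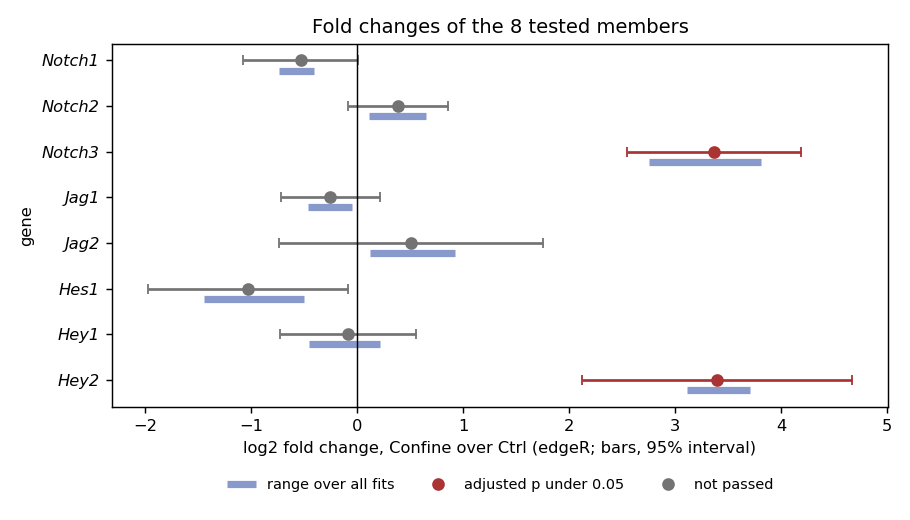
edgeR log2 fold change of Confine over Ctrl for the 8 tested genes, with points for the estimate (red where the adjusted p is under 0.05), thin bars for the 95% interval and thick blue bars beneath for the range over the reported fit and its alternatives. Notch3 (3.37) and Hey2 (3.39) stand apart from 0 in every fit, whereas the blue bar of Hey1 crosses 0.

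In order of RPKM, the 10 genes in Ctrl ran Notch2, Jag1, Hes1, Hey1, Notch1, Jag2, Notch3, Dll1, Hey2 and Heyl. The ranges of these neighbours overlapped, Jag1 with Hes1, Hes1 with Hey1, Jag2 with Notch3, Notch3 with Dll1 and Dll1 with Hey2, so their order within each such pair is not resolved. In Confine it ran Notch2, Jag1, Hey1, Hes1, Notch3, Notch1, Hey2, Jag2, Dll1 and Heyl, where Hey1, Hes1 and Notch3 overlapped in turn, as did Dll1 and Heyl. By mean RPKM, Notch3 moved from rank 7 to rank 5 and Hey2 from rank 9 to rank 7. The Ctrl ranks of both genes and the Confine rank of Notch3 are not resolved, as ranges overlapped. Genes further apart in the order overlapped too, such as Hes1 with Notch1 and Jag2 with Hey2 in Ctrl. The top of the order held Notch2 at 15.8 ± 4.61 RPKM (SD, n = 3) in Ctrl and 20.7 ± 5.22 RPKM (SD, n = 2) in Confine, followed by Jag1 at 2.64 ± 0.608 and 2.21 ± 0.151 RPKM.

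The rest of the pathway was read from a list of 62 further genes, of which 50 were tested, 10 rose and 4 fell. This is 28% of those tested, against 23% of all genes, with a median log2 fold change of 0.15 against -0.002 over all genes. With library size alone, 3 rose and 11 fell, so the balance of directions depended on the scaling. Only 4 of the 14 calls, those of Dlk2, Rbpj, Tle2 and Dtx4, passed under all 14 alternatives, and no called gene changed direction in any. Without Confine replicate 3, 6 genes of the list passed, 5 of them among the 14.

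Rbpj encodes the DNA-binding partner through which all 4 receptors act. It had 46.8, 59.4 and 45.9 CPM in Ctrl and 90.7 and 108 CPM in Confine, with no overlap, and rose by 0.97 on the log2 scale (SE 0.19, edgeR adjusted p = 7.97e-04). Part of its sequence is shared with the pseudogene Rbpj-ps3, which had 80 to 123 counts in Ctrl and 209 in each Confine library against at least 1079 for Rbpj. The coactivator gene Maml1 rose by 0.66 on the log2 scale (edgeR adjusted p = 0.0215), and the acetyltransferase gene Kat2b fell by 0.87 (edgeR adjusted p = 0.0126). Maml2, Maml3, Snw1, Ep300 and Kat2a were tested without passing.

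Dlk2 had the largest fall among the tested genes of the wider list. It encodes a membrane protein related to the Notch ligands that lacks their receptor-activating DSL domain, and is described as an inhibitor of Notch signalling. It had 25.2, 14.9 and 12.1 CPM in Ctrl and 2.84 and 4.13 CPM in Confine. Both Confine libraries were far below the lowest Ctrl library, and the fall was -2.33 on the log2 scale (SE 0.31, edgeR adjusted p = 2.05e-05). Its homolog Dlk1 and the ligand gene Dll3 had 0 counts in every library. Dll4, the ligand of arterial endothelium, had 3, 0 and 1 counts in Ctrl and 7 and 2 in Confine and was not tested.

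Notch4, the remaining receptor gene, rose from a low level. It had 12, 9 and 14 counts in Ctrl and 30 and 43 in Confine, and rose by 1.59 on the log2 scale (SE 0.50, edgeR adjusted p = 0.0270). The call was lost without Ctrl replicate 1 (adjusted p = 0.0720), without Ctrl replicate 2 (adjusted p = 0.0536) and without Confine replicate 3, when the log2 fold change was 1.17 (edgeR adjusted p = 0.317). Among genes listed under receptor inhibitors and turnover, Dtx4, a Deltex ubiquitin ligase acting on Notch, rose by 1.11 on the log2 scale (edgeR adjusted p = 2.97e-04). Its mean went from 13.5 ± 1.43 CPM (SD, n = 3) in Ctrl to 29.2 ± 3.67 CPM (SD, n = 2) in Confine. Numbl, a homolog of the Notch antagonist Numb, rose by 0.70 (edgeR adjusted p = 0.0148). Tle2, a Groucho-type corepressor that HES proteins recruit, fell by 1.20 (edgeR adjusted p = 2.81e-04), from 23.3 ± 2.95 to 10.1 ± 0.608 CPM.

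Of the genes that process receptors and ligands, 2 of 10 cleavage genes, 1 of 5 glycosylation genes and 1 of 4 ubiquitin ligase genes passed, close to the 23% of all genes. Furin, which cuts the receptor precursor, and Adam17, an ADAM protease, rose by 0.68 and 0.65 on the log2 scale (edgeR adjusted p = 0.0105 and 0.0113), while the other 8 receptor cleavage genes, Adam10 and those of gamma-secretase, did not pass. Of 5 tested glycosylation genes Poglut1, which adds glucose to the receptor, fell by 0.68 (edgeR adjusted p = 0.0128). Of the ubiquitin ligases that act on ligands, Neurl1a rose by 0.78 (edgeR adjusted p = 0.0314), and Mib1, Mib2 and Neurl1b did not pass. Among the corepressor genes Cir1 and Kdm5a rose by 0.69 and 0.68 (edgeR adjusted p = 0.0220 and 0.0105). Cir1 shares at least 300 bases of near-identical sequence with 3 pseudogenes, Adam17 with Iah1, Neurl1a with AC132288.2 and Kat2b with Kat2b-ps. Some reads of Cir1, Adam17 and Neurl1a could thus have been assigned elsewhere. AC132288.2 had 5, 1 and 0 counts in Ctrl and 0 in both Confine libraries, and Kat2b-ps had 0 counts in every library. The calls of Furin, Adam17, Poglut1, Neurl1a, Cir1, Kdm5a and Kat2b were each lost in at least 1 alternative.

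Nrarp and Hes5, targets often read beside the members, were near or at 0. Nrarp, a feedback inhibitor switched on by Notch, had 2, 0 and 4 counts in Ctrl and 3 and 4 in Confine. Hes5 had 0 counts in every library, which allows up to 0.128 CPM in any of them, and so did Hes2 and Hes3. Hes6, which encodes a HES-like protein, was the 1 tested gene of the remaining HES family, with a log2 fold change of 0.003 (edgeR adjusted p = 0.996).

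**Figure D4:**
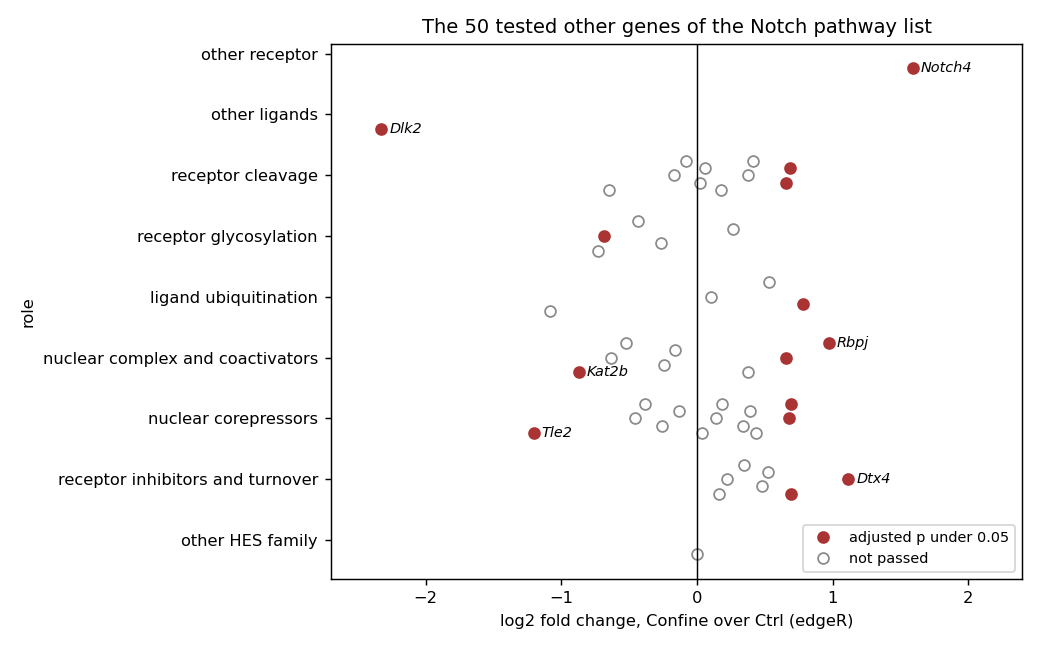
edgeR log2 fold change of Confine over Ctrl for the 50 tested genes of the wider list, by role, with filled points for an adjusted p under 0.05 (vertical scatter within a role only separates points). The 10 filled points at the right and 4 at the left are spread over most roles, and Dlk2 (-2.33) and Notch4 (1.59) lie farthest out.

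Markers of cells that use Notch3, Notch4 or Hey2 elsewhere were read beside these rises. The 7 mural markers other than Notch3 summed to 215 to 231 CPM in Ctrl and 436 to 443 CPM in Confine, nearly all of it from Cspg4, which fibroblasts in culture also express. Among them Cspg4 and Des rose, Rgs5 fell, and Kcnj8 and Abcc9 had 0 counts in every library. The 8 endothelial markers summed to 4.91 to 8.12 CPM in Ctrl and 3.58 to 5.04 CPM in Confine. Vwf rose and Erg fell, Tie1 and Emcn had 0 counts in every library, and Cdh5 and Tek had 0 counts in both Confine libraries. The 9 leukocyte markers summed to 15.9 to 18.2 CPM in Ctrl and 35.8 to 41.4 CPM in Confine. Of these, Cd68, Cd14 and Csf1r rose and Lyz2 fell. Ptprc had 2, 0 and 0 counts in Ctrl and 0 in both Confine libraries. The 6 epithelial markers summed to at most 0.675 CPM in any library. The 6 neural progenitor markers summed to 15.4 to 31.6 CPM in Ctrl and 29.4 to 48.0 CPM in Confine, where Nes and Sox2 rose and Fabp7 and Neurog2 had 0 counts in every library. The part of other cell types in the changes of Notch3, Notch4 and Hey2 was not tested.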

How the data were processed

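RNA of 3 Ctrl and 3 Confine samples was sequenced after poly(A) selection, in libraries whose dUTP-marked second strand was removed. The authors deposited raw counts per gene, without normalization. The submitters' processing notes name Trim Galore 0.6.10, HISAT2 2.1.0, SAMtools 1.5, featureCounts and the build mm10 (GRCm38). The strand setting of the counting is not given in the sources used here, and it can move reads between overlapping genes. Samples were grouped by their titles, and the identical columns of Confine replicates 1 and 2 were used once.

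Gene names, positions and exon lengths came from GENCODE M21 (GRCm38), which holds 55154 of the 55335 identifiers without their version. Counts were filtered by filterByExpr (15881 genes kept), scaled by TMM and tested with edgeR 4.0.16 (R 4.3.3, 3 residual degrees of freedom). The variance of each gene was moderated towards that of the other genes, with a median of 14.8 prior degrees of freedom. Most of the spread behind each p-value and interval was thus borrowed from other genes. Standard errors are the log2 fold change divided by the square root of F. DESeq2 1.42.0, limma-voom (limma 3.58.1), other scalings and filters, a replicate block and fits lacking 1 library each were alternatives. Matches of at least 300 bases at 95% identity to transcripts of other genes were searched on either strand with blastn 2.17.0. Genes that overlap on the opposite strand also count as matches, as 0610009E02Rik does for Notch1 and Gm17276 for Notch3. For Dll1 and Adam17, copies and overlaps were not told apart. On counts simulated for this comparison with 15881 genes, edgeR recovered 91% of 100 genes changed by 2 on the log2 scale and 57% of 100 changed by 1, and 8.07% of its calls were false. The simulation changed only 200 genes, equally up and down, whereas 3654 passed in the data. Its shares therefore need not hold for the data. Intervals on counts and floors reflect counting error alone, as PCR copies were not marked by molecular identifiers.

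The members, lists and tests were chosen with earlier results of these data known. Named were the 10 members, then Notch4, Dll3, Dll4, Rbpj, Nrarp and Hes5, and every other pathway gene that passed; further genes of the lists are named only to complete a count.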

Additional observations from a re-analysis of the deposited data

How the results depend on the processing

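The rises of Notch3 and Hey2 kept their direction and passed under all 14 alternatives. The number of members that passed was 2 in the reported fit, 4 with library size alone, and 2 to 4 with a library left out. With the replicate number as a block it was 2 when the repeated Confine library was taken as number 2 and 4 when it was taken as number 1, and for the wider pathway list 6 and 22 against 14 without the block. A correlation across genes was computed to see whether the numbers pair the samples. Over 15881 genes it was -0.05 with the repeated library as number 2 and 0.05 as number 1. Over 10457 genes it was -0.11 and 0.09. These values are small and differ in sign, and give no clear sign of pairing. With a library left out, 6 to 18 genes of the wider list and 2054 to 4426 of all genes passed; 2256 of all genes and 8 of the list did so without the repeated Confine library. Fits with 1 Confine library assume that it varies as the Ctrl libraries do.

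Notch1 also passed with library size alone (log2 fold change -0.74) and with the block as number 1 (-0.71), and ranged from -0.71 to -0.41 with a library left out. Notch2 passed with the block as number 1 (0.63) and ranged from 0.11 to 0.65. Hes1 passed with library size alone (-1.24) and with no filter (-1.04), and ranged from -1.44 to -0.67. The fit with no filter and that with the block as number 2 took each gene's variance wholly from the other genes. Hey1 changed sign with the block as number 2 (0.012) and ranged from -0.45 to 0.22. With no filter, Dll1 and Heyl had -2.00 and -1.92 without passing. The causes of these moves were not tested.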
